A study of Homo sapiens with 18 samples.

Results

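A set of 218 protein-coding genes was read at a lower level in ABCC1-overexpressing cells than in empty vector control cells in each of 3 RNA-sequencing experiments. Counts were scaled to CPM, the count of a gene per 1000000 counts on Ensembl genes. A gene was a member when its mean CPM was at least 5 in the empty vector libraries of the first experiment (RNA1) and at least 2 in those of RNA2 and RNA3, and when log2((mean ABCC1 CPM + 0.5)/(mean empty vector CPM + 0.5)), called the log2 ratio below, was at most -0.4 in every experiment. Of 57905 Ensembl genes in the counts, 19263 were protein-coding and 10499 of these passed the level floors. The limit was met by 557, 727 and 840 of these genes in the experiments taken singly and by 221 of them, or 2.10%, in all 3, and TIMP3, INSM1 and HNRNPLL were set aside, which left 218. The limit turned round, a log2 ratio of at least 0.4 in all experiments, was met by 113 genes. The members were thus chosen by the ratio between the lines in all 18 libraries, so the difference between the lines in the members is a description here and carries no test.

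The cells were BE(2)-m17, a human neuroblastoma line that makes catecholamines. All of them carried pSBbi-Hyg-APP, a Sleeping Beauty transposon vector for human APP under hygromycin selection. The control line, called Puro, also carried the empty vector pSBbi-Pur, and the other line carried pSBbi-Pur-ABCC1(WT), with a codon-optimized ABCC1. Per the study's methods, each line consisted of cells selected with puromycin after transfection from the same APP-expressing line. RNA was taken on day 4 after plating from 3 wells per line in each experiment, plated in successive weeks, so the spread is between wells of 1 line and not between independently made lines. The study repeated its first experiment with cryopreserved and with newly transfected cells, and the labels number the experiments without saying which of RNA2 and RNA3 was which. For RNA1, the labels name both a TruSeq kit and the SMARTer stranded total RNA kit. The study's methods give the former for RNA1 and the latter for the repeats.

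ABCC1, also known as MRP1, is an ATP-driven pump that exports glutathione, its conjugates and many drugs from cells. Neuroblastoma arises from the sympathetic lineage, and its adrenergic cells keep parts of that program: enzymes that turn tyrosine into noradrenaline, transporters that load the product into dense-core granules, and receptors and secreted cues that guide growing axons. In axon guidance, a secreted ligand such as SEMA3A binds a neuropilin that signals through a plexin partner, and SLIT proteins bind ROBO receptors. Several genes of these systems were among the members and are described first.

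The depth, as read pairs assigned to features, ran from 8866994 to 57937653 over the libraries and was lowest in RNA3 (8866994 to 13332413). Read pairs on the vector's ABCC1 numbered 51035 to 594404 in each ABCC1 library and 0 to 15 in each Puro library, so every library matched its line. Read pairs were counted without regard to strand and without molecular identifiers. The 16 adrenergic neuroblastoma genes summed to 5389.5 to 8504 CPM in every library. Of the markers of other cell types, the 6 fibroblast genes summed to 134 to 138 CPM in RNA1 Puro and 209 to 214 CPM in RNA1 ABCC1 libraries, most of it LUM and DCN, with COL1A2 at or near 0 in both. In the repeats they summed to 97.8 to 151 CPM in Puro and 81.0 to 125 CPM in ABCC1 libraries. Their part in the members' values was not tested. In RNA1 the 5 immune markers summed to 1.03 to 2.13 CPM and the 4 endothelial markers to 0.444 to 0.622 CPM. In RNA3 they reached 53.0 and 89.6 CPM, beside a background measured on 356 olfactory receptor genes, which neuroblastoma cells are not known to use. That background was 0.00384 to 0.00548 CPM per kilobase of exon in RNA1. In RNA2 it was 0.633 ± 0.133 in Puro and 0.292 ± 0.158 in ABCC1 libraries (SD, n = 3), and in RNA3 1.67 ± 0.239 and 1.22 ± 0.252. It was thus higher in RNA2 and RNA3 than in RNA1, and its mean was lower with ABCC1 in both. For many named members, the share of the level that the background makes up, in proportion to exon length, is given beside the result.

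Promoters are shown for the members with a log2 ratio of at most -1 in all 3 experiments, since these met a stricter limit than the rule's. This choice used the ratios as counted. With the background subtracted 11 members met it, and with the TMM-scaled library sizes described below FEZ1 alone of those chosen did. The members chosen were FEZ1, which encodes an adaptor for transport along microtubules, CDC42EP1, an effector of the GTPase CDC42, ARHGAP36, an inhibitor of protein kinase A, the neuronal adhesion gene PCDH9, and FAIM2, an inhibitor of Fas-mediated cell death. The RefSeq promoter table (GRCh38.p14) held the first 4 of these. The 250 bases before the start are given 5′ to 3′ on the gene's strand, with capitals for matches to the motifs listed after them. FEZ1 stood at chr11:125496266-125496515 on the minus strand, CDC42EP1 at chr22:37560230-37560479 on the plus strand, ARHGAP36 (the first of its starts) at chrX:131058096-131058345 on the plus strand and PCDH9 at chr13:67230337-67230586 on the minus strand.
FEZ1: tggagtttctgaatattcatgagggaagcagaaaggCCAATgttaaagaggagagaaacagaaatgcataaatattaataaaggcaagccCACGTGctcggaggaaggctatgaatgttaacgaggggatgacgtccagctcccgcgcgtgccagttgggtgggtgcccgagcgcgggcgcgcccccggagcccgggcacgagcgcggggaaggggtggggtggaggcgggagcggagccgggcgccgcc
CDC42EP1: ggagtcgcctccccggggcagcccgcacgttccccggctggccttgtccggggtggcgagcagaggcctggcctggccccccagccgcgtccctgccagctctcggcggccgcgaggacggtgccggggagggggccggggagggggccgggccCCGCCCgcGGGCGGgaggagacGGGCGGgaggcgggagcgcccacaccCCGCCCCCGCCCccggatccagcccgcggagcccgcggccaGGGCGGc
ARHGAP36: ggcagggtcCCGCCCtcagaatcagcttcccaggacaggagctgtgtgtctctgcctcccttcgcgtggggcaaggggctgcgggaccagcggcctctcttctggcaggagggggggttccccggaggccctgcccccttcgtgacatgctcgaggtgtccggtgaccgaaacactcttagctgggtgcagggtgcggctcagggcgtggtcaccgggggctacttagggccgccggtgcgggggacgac
PCDH9: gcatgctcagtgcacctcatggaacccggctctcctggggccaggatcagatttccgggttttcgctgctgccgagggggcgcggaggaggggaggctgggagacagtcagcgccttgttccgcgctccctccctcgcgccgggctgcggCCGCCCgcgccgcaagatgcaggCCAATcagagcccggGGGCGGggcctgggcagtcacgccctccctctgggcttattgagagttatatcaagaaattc

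The motifs were searched on both strands, and none of them contains another. They were the CCAAT box, the GC box GGGCGG, the TATA box with the letters TATAAA, TGACGTCA (a cyclic AMP response element), CACGTG and CAGCTG (E-boxes), CACCTG (an E-box that repressors of the SNAI and ZEB families can bind) and TGANTCA (an AP-1 element). CDC42EP1 held 6 GC boxes in this window and PCDH9 held 2, with 1 CCAAT. FEZ1 held 1 CCAAT and 1 CACGTG. In the table, 172 of 218 members had 302 starts. A GC box was found in 50.7% of these promoters, in 64.4% of 12889 promoters of genes past the floors and in 42.6% of all 35116 promoters. CAGCTG stood in 18.5%, 12.5% and 13.99% of them, TATAAA in 9.27%, 5.35% and 10.7%, and CACGTG in 4.97%, 8.62% and 6.35%. For CCAAT the shares were 33.8%, 33.5% and 32.0%, for CACCTG 15.9%, 14.8% and 17.5%, for TGANTCA 5.30%, 3.93% and 6.57%, and for TGACGTCA 1.99%, 2.73% and 1.65%. The median GC content was 60.8% in the members' promoters, 64.8% for genes past the floors and 58.0% over all. Starts of 1 gene lie close together and share sequence, so these shares are descriptions.

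The members as a set made up 15025 ± 195 CPM in RNA1 Puro and 8500.2 ± 360 CPM in RNA1 ABCC1 libraries. In RNA2 they summed to 9300.3 ± 1440 and 5959 ± 179 CPM, and in RNA3 to 13936 ± 1303 and 8865 ± 9.89 CPM (SD, n = 3 each, as for every ± here). The median member stood at 56.1% of its Puro level in RNA1, 60.8% in RNA2 and 63.7% in RNA3, as log2 ratios -0.83, -0.72 and -0.65. In such bulk samples, fewer cells of a kind and less RNA per cell cannot be told apart. Over all genes past the floors the medians were 0.03, 0.04 and -0.00. Members with a log2 ratio of -1 or less numbered 78 in RNA1, 39 in RNA2 and 28 in RNA3. With the background subtracted they numbered 79, 33 and 58, so the order of RNA2 and RNA3 turned round. As counted, ratios of -2 or less were read for 11 members in RNA1, 1 in RNA2 and 0 in RNA3. The lowest of a member's ratios fell in RNA1 for 117 members, in RNA2 for 56 and in RNA3 for 45.

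**Figure D1:**
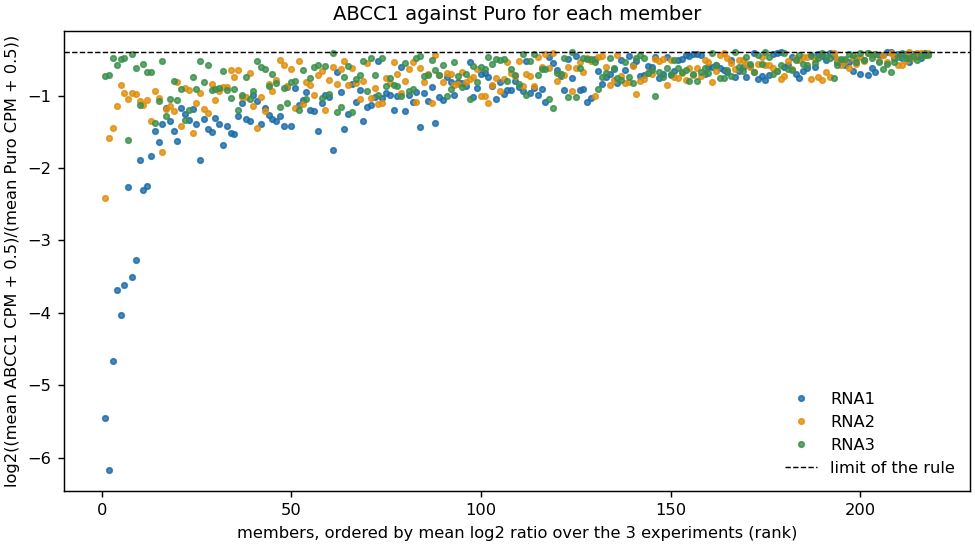
Log2 ratio of ABCC1 to Puro (y axis, 0.5 CPM added to both means) for each of the 218 members, ranked by their mean ratio (x axis), with a point per experiment and the limit of the rule as a dashed line. The ratios reach -6.17 in RNA1 but -2.41 in RNA2 and -1.61 in RNA3, and beyond the leading genes the experiments overlap.

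The size of the set depended on how libraries were scaled. With TMM-scaled library sizes 123 genes met the rule, 119 of them members, and with DESeq2 size factors 81 did, 78 of them members. ALK, IGF2, DLK1, EFNB2, TUBA1A and FADS1, described below, were among the members that missed the limit under either scaling. These scalings, fitted over all expressed genes, moved the median log2 ratio of the genes past the floors from 0.04 to 0.24 and 0.35 in RNA2, and from -0.00 to 0.12 and 0.18 in RNA3. All 218 members stayed below 0 in every experiment under both scalings and when scaled to the total of protein-coding genes, under which 213 kept the limit. A scale factor moves all genes of a library alike, and these shifts were smaller than the limit's distance from 0. That sign was thus set by the choice of members. Relative to the median gene, members stood at -0.77 and -0.65 under TMM in RNA2 and RNA3, against -0.76 and -0.65 as counted. Members and the median gene shift nearly alike under any scale factor, so this difference could hardly change. With the background subtracted, 164 members kept the limit in all 3 experiments and 211 stayed below 0, the exceptions being CDH7, DGKB, ERBB4, HS3ST3B1, PDE11A, SERTM2 and ZNF703, named here for that reading. The background equalled 112%, 103%, 130.4% and 119% of the RNA3 Puro level of CDH7, ERBB4, HS3ST3B1 and SERTM2, so a subtracted ratio at this level gives no direction. The same goes for TMEM255A, which is counted among the 211 but had no RNA3 Puro mean above the background. Subtracted CPM below 0 were set to 0 in each library before averaging, and 3 members then stood over 0 in RNA2 and 3 in RNA3. After subtraction the members' medians were -0.83, -0.61 and -0.76, against 0.03, 0.16 and 0.16 over the genes past the floors. Without each of the 18 libraries in turn, 106 members always met the rule, 98 of which also did after subtraction.

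**Figure D2:**
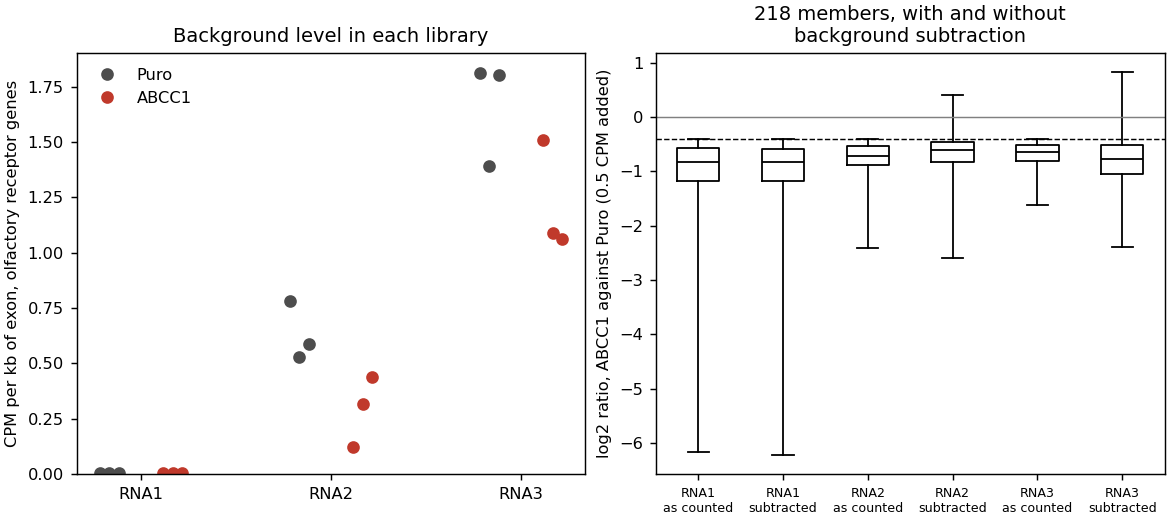
Left, background in CPM per kilobase of exon on olfactory receptor genes in each library, by experiment and line. Right, log2 ratios of the 218 members as counted and after subtraction (box, quartiles; whiskers, lowest to highest; dashed line, limit; grey line, 0). Background was highest in RNA3, and subtraction moved the median from -0.72 to -0.61 in RNA2 and from -0.65 to -0.76 in RNA3.

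All 3 ABCC1 libraries were below all 3 Puro libraries for 218 members in RNA1, 179 in RNA2 and 186 in RNA3, against 24.1%, 9.41% and 16.8% of the genes past the floors. This held in all 3 experiments for 151 members, in 2 for 63 and in 1 for 4, and 3.41% of the genes past the floors showed it in all 3. In RNA2, 116 members had their lowest value in ABCC1 replicate 1, which also had the least background (0.123 CPM per kilobase), 61 in replicate 2 and 38 in replicate 3. Over genes past the floors these libraries held the lowest value for 15.3%, 13.2% and 5.64%. In edgeR fits over all genes (quasi-likelihood test, adjusted p at most 0.05), 218 members were called lower in RNA1, 34 in RNA2 and 92 in RNA3, beside 19.7%, 0.458% and 0.767% of all genes tested. The same contrast chose the members, so nothing is read from these calls. The count in RNA2 rested on single libraries, with 1 call left without Puro replicate 3, 3 without ABCC1 replicate 2 and 6 without Puro replicate 2, while leaving out replicate 1 of both lines gave 59. Calls over all genes moved with them, from 156 lower genes to 2, 7, 33 and 131. In RNA3, 48 calls were left without ABCC1 replicate 2, and 58 without Puro replicate 3 or without ABCC1 replicate 3, and all lower calls went from 280 to 126, 106 and 113.

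Of 27 axon guidance genes past the floors, 6 were members: the ligands SEMA3A, SLIT2 and EFNB2 and the receptors NRP1, PLXNA2 and ROBO2. The list's medians were -0.20, -0.16 and -0.30 in the 3 experiments. SEMA3A (chr7:83585093-84122040, GRCh37), a secreted repellent of axons, was read at 57.3, 59.3 and 62.3 CPM in the Puro and 18.4, 20.1 and 18.2 CPM in the ABCC1 libraries of RNA1. RNA2 gave 33.3, 63.3 and 44.04 CPM in the Puro and 26.2, 27.5 and 25.5 CPM in the ABCC1 libraries, and RNA3 gave 42.1, 55.4 and 57.9 CPM in the Puro and 26.03, 24.5 and 23.3 CPM in the ABCC1 libraries. The lines did not overlap in any experiment, and the RNA2 Puro libraries spread most. Its log2 ratios were -1.63 (SE 0.06), -0.82 (SE 0.27) and -1.06 (SE 0.14), where SE is the error from the spread between libraries. NRP1 (chr10:33466420-33625190), the neuropilin that binds SEMA3A, stood at 30.8, 28.98 and 31.4 CPM in the Puro and 12.003, 11.2 and 10.8 CPM in the ABCC1 libraries in RNA1, at 20.99, 28.8 and 23.2 CPM in the Puro and 12.8, 12.02 and 12.5 CPM in the ABCC1 libraries in RNA2 and at 48.01, 55.3 and 46.5 CPM in the Puro and 30.5, 22.1 and 27.1 CPM in the ABCC1 libraries in RNA3. Here too the ABCC1 libraries lay under every Puro library, with log2 ratios of -1.39, -0.94 and -0.90. The background made up 38.5% of its RNA3 Puro level, and the ratio after subtraction was -1.26. PLXNA2, a plexin that signals for semaphorins, had ratios of -0.51, -0.76 and -0.63. ROBO2, a receptor for SLIT proteins, had ratios of -1.53, -0.74 and -0.91 and did not overlap between lines either. Background was 21.4% and 47.1% of its Puro level in RNA2 and RNA3, and its RNA3 ratio after subtraction was -1.49. SLIT2, one of its ligands, had ratios of -0.74, -1.10 and -0.46, with 53.6% and 77.3% of its Puro level in RNA2 and RNA3 at the background. EFNB2, a transmembrane ligand of Eph receptors, was 45.1 ± 0.267 CPM in Puro and 27.5 ± 0.288 CPM in ABCC1 libraries in RNA1, with ratios of -0.71, -0.48 and -0.52.

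Among adhesion genes, PCDH9 (chr13:66876967-67804468, GRCh37), a protocadherin of neurons, was read at 94.3, 94.6 and 107 CPM in the Puro and 30.4, 32.2 and 31.4 CPM in the ABCC1 libraries of RNA1. In RNA2 it was 54.7, 130.3 and 86.5 CPM in the Puro and 43.5, 43.1 and 44.8 CPM in the ABCC1 libraries. In RNA3 the values were 80.6, 95.7 and 85.2 CPM in the Puro and 39.3, 44.1 and 39.4 CPM in the ABCC1 libraries. The ABCC1 libraries were close to each other in every experiment, whereas the RNA2 Puro libraries were widely spread, and the lines did not overlap. The ratios were -1.64, -1.04 and -1.08. CLSTN2, a postsynaptic calsyntenin, had ratios of -1.17, -1.42 and -0.91 without overlap. TNR, a tenascin of the neural matrix, had ratios of -2.30, -1.13 and -0.57, and its background share was 47.7% and 44.7% of the Puro level in RNA2 and RNA3. JAML, a junctional adhesion molecule otherwise known from leukocytes, had the lowest ratio of the set. It was read with 1618, 1039 and 1246 counts in RNA1 Puro and 0, 3 and 1 counts in RNA1 ABCC1 libraries, a ratio of -6.17 on a scale that, with 0.5 CPM added, understates the change of such low values. In RNA2 it stood at 11.99, 13.5 and 13.6 CPM in the Puro and 0.976, 4.82 and 6.22 CPM in the ABCC1 libraries, and in RNA3 at 22.4, 18.7 and 22.5 CPM in the Puro and 15.7, 13.6 and 8.84 CPM in the ABCC1 libraries. The lines did not overlap, and ABCC1 replicate 1 was lowest in RNA2. Background accounted for 41.8% and 67.6% of its Puro level there. CD34, a sialomucin of blood progenitors and endothelium, gave 6.67 ± 0.495 CPM in Puro and 0.242 ± 0.0652 CPM in ABCC1 libraries in RNA1 and ratios of -3.27, -0.98 and -0.61. The lines overlapped in RNA3 alone. The 4 endothelial markers summed to at most 0.622 CPM in RNA1, and in the repeats, where the background was higher, their median sum was also lower with ABCC1, at 27.7 and 16.1 CPM in RNA2 and 85.5 and 59.8 CPM in RNA3. Their part in the CD34 ratios was not tested, and the background equalled 36.3% and 40.4% of its Puro level in RNA2 and RNA3. SEZ6, a surface protein of neurons cut by beta-secretase, was 119, 123 and 124 CPM in the Puro and 40.03, 42.2 and 46.7 CPM in the ABCC1 libraries in RNA1, and its ratios were -1.495, -0.94 and -1.38 with no overlap. CNTNAP5, a contactin-associated adhesion protein, lay just inside the limit with -0.40, -0.53 and -0.56, with 37.998% and 46.4% of its Puro level in the repeats at the background and an RNA2 ratio of -0.28 after subtraction.

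Within catecholamine handling and granules, 1 of 15 adrenergic identity genes past the floors was a member, DBH, as were 3 of 15 neuroendocrine granule genes, PCSK1, RAB3B and SLC18A1. The medians of the lists were -0.19, 0.06 and -0.19, and -0.07, 0.04 and -0.13. DBH (chr9:136501482-136524466, GRCh37), the enzyme that turns dopamine into noradrenaline, was read at 390.3, 377 and 379 CPM in the Puro and 206, 204 and 249.6 CPM in the ABCC1 libraries in RNA1. In RNA2 its libraries gave 101, 108 and 101 CPM in the Puro and 67.2, 62.3 and 56.9 CPM in the ABCC1 libraries, and in RNA3 135, 215 and 170.2 CPM in the Puro and 112, 101 and 102 CPM in the ABCC1 libraries. The lines were apart in all experiments, and the ratios -0.80 (SE 0.10), -0.73 (SE 0.07) and -0.72 (SE 0.20) were close to each other. Background made up at most 2.66% of its Puro level. TH, the first enzyme of the same pathway and no member, had higher means with ABCC1, at 53.99 and 75.8 CPM in Puro and ABCC1 libraries of RNA1, 17.6 and 22.2 CPM in RNA2 and 31.6 and 45.3 CPM in RNA3. SLC18A1, the vesicular monoamine transporter VMAT1, was 33.2, 34.6 and 33.7 CPM in the Puro and 12.2, 12.2 and 15.1 CPM in the ABCC1 libraries in RNA1, 19.2, 20.5 and 16.5 CPM in the Puro and 8.11, 9.46 and 9.35 CPM in the ABCC1 libraries in RNA2 and 32.8, 29.2 and 26.7 CPM in the Puro and 22.2, 16.7 and 13.5 CPM in the ABCC1 libraries in RNA3. Each experiment showed the ABCC1 libraries below the Puro libraries, with ratios of -1.33, -1.02 and -0.75. PCSK1, a convertase that cleaves prohormones in granules, had ratios of -1.17, -1.21 and -0.63, and RAB3B, a GTPase of granule release, -0.90, -0.87 and -0.43, with 49.4% and 68.97% of its Puro level in the repeats at the background. SCGN, a calcium sensor of endocrine cells, gave 114, 125 and 116 CPM in the Puro and 2.22, 2.31 and 2.13 CPM in the ABCC1 libraries in RNA1. The Puro libraries were far lower in the repeats, for which the study's methods give another library kit, so cells and kit cannot be told apart. They gave 8.74, 12.1 and 13.2 CPM in the Puro and 1.35, 1.11 and 2.74 CPM in the ABCC1 libraries in RNA2 and 4.56, 2.55 and 4.98 CPM in the Puro and 2.06, 2.52 and 2.12 CPM in the ABCC1 libraries in RNA3. The ABCC1 libraries had means of 2.22, 1.73 and 2.23 CPM, and the ratios were -5.45, -2.41 and -0.73. The background equalled 0.269%, 24.4% and 79.1% of these ABCC1 means, and 59.9% of the RNA3 Puro mean.

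**Figure D3:**
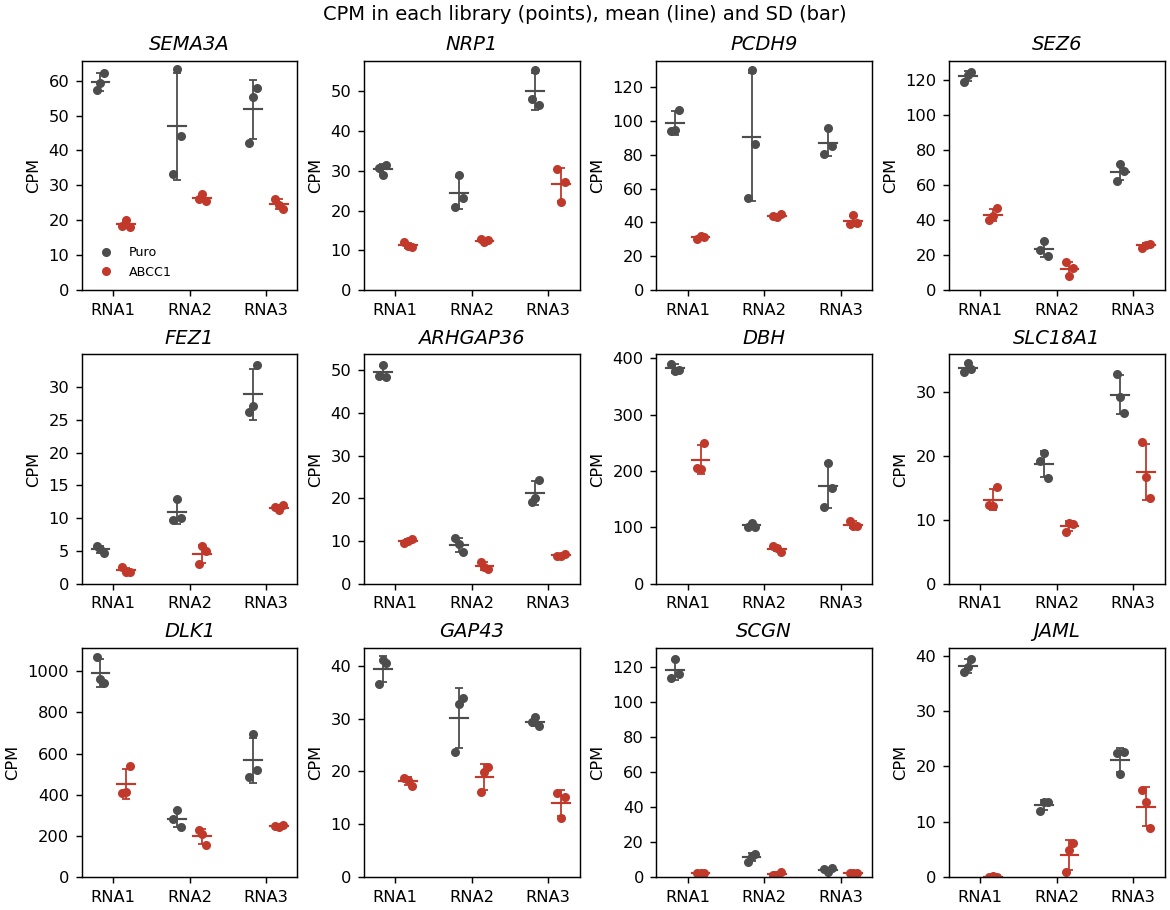
CPM (y axis, from 0) of 12 members in each library by experiment (x axis), Puro in grey and ABCC1 in red, with a point per library, the mean as a line and the SD as a bar. ABCC1 libraries lie below the Puro libraries in every panel and experiment, while SCGN and JAML differ far more in RNA1 than in RNA3.

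Secreted signals held 10 members, with median ratios of -0.97, -0.63 and -0.63. DLK1 (chr14:101192042-101201539, GRCh37), a non-canonical Notch ligand and the only member among 11 Notch pathway genes past the floors (medians 0.04, 0.05 and -0.10), was read at 1068, 965 and 941 CPM in the Puro and 406, 413 and 538 CPM in the ABCC1 libraries in RNA1. RNA2 gave 282, 324 and 244 CPM in the Puro and 228, 209 and 156 CPM in the ABCC1 libraries, and RNA3 486, 693 and 520.4 CPM in the Puro and 247, 241 and 251 CPM in the ABCC1 libraries. Its ratios were -1.13 (SE 0.15), -0.52 (SE 0.20) and -1.20 (SE 0.16), nearest to 0 in RNA2, and the lines did not overlap. IGF2, a fetal growth factor, was 2512 ± 209.6 CPM in Puro and 1547 ± 258 CPM in ABCC1 libraries in RNA1, 1553 ± 436 CPM in Puro and 1128 ± 152 CPM in ABCC1 libraries in RNA2 and 3476 ± 869 CPM in Puro and 2610.3 ± 155 CPM in ABCC1 libraries in RNA3. Its ratios were -0.70, -0.46 and -0.41, and over 25% of its exon bases are shared with another annotated gene, so its counts are less certain. BMP7 and LTBP1 were members among 16 BMP and TGF-beta genes past the floors (medians -0.21, -0.09 and -0.08). BMP7, a bone morphogenetic protein, had ratios of -0.99, -0.63 and -0.94 without overlap, and LTBP1, which holds latent TGF-beta in the matrix, -1.35, -0.79 and -0.52, with background shares of 42.6% and 58.2% of its Puro level in the repeats. ENPP2, the enzyme autotaxin that makes lysophosphatidic acid, was 726 ± 14.8 CPM in Puro and 390.4 ± 31.2 CPM in ABCC1 libraries in RNA1, and its ratios were -0.89, -0.63 and -0.81. NKD2, an inhibitor of Dishevelled, was the member among 18 Wnt genes past the floors (medians -0.11, 0.01 and -0.20), with -0.57, -0.59 and -0.83.

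Receptors and their signaling held 18 members, with medians of -0.99, -0.76 and -0.59. ALK, a receptor tyrosine kinase mutated in part of neuroblastomas, was read at 33.4, 32.7 and 30.1 CPM in the Puro and 22.997, 19.98 and 23.2 CPM in the ABCC1 libraries in RNA1. It was 43.6, 39.3 and 34.3 CPM in the Puro and 24.5, 30.5 and 22.98 CPM in the ABCC1 libraries in RNA2 and 63.7, 55.4 and 67.5 CPM in the Puro and 49.5, 37.98 and 44.5 CPM in the ABCC1 libraries in RNA3. The lines were apart throughout, and its ratios were -0.53, -0.58 and -0.50. With TMM-scaled library sizes they were -0.56, -0.37 and -0.37. ERBB4, a neuregulin receptor, had ratios of -2.25, -1.06 and -0.68 as counted, but the background equalled 67.4% and 103% of its Puro level in RNA2 and RNA3 and 122% of its RNA3 ABCC1 level, so neither line had an RNA3 mean above the background and no direction is read there after subtraction. RASGRF2, an exchange factor for Ras, was 22.3 ± 1.49 CPM in Puro and 0.8999 ± 0.2398 CPM in ABCC1 libraries in RNA1, with ratios of -4.03, -0.85 and -0.49 and background shares of 64.5% and 80.8%. RASD2, a small GTPase, had ratios of -0.79, -0.58 and -0.40. ARHGAP36 (chrX:130192216-130223857, GRCh37) was read at 48.7, 51.3 and 48.5 CPM in the Puro and 9.44, 9.97 and 10.5 CPM in the ABCC1 libraries in RNA1. RNA2 gave 10.7, 9.36 and 7.33 CPM in the Puro and 5.12, 3.88 and 3.42 CPM in the ABCC1 libraries and RNA3 19.2, 20.05 and 24.4 CPM in the Puro and 6.44, 6.45 and 6.95 CPM in the ABCC1 libraries. Its ratio of -1.61 in RNA3 was the lowest of all members there. FAIM2 had ratios of -1.36, -1.14 and -1.05, with no overlap.

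Of 23 neuronal ion channel genes past the floors, HCN4 and KCNN3 were members (medians -0.08, -0.00 and -0.14). HCN4, a pacemaker channel, was 5.47 ± 0.286 CPM in Puro and 1.78 ± 0.255 CPM in ABCC1 libraries in RNA1 and 10.6 ± 1.24 CPM in Puro and 2.75 ± 0.635 CPM in ABCC1 libraries in RNA2, and its ratios were -1.39, -1.78 and -0.53. In RNA3 its lines overlapped. KCNN3, a calcium-activated potassium channel, had ratios of -1.88, -0.97 and -0.53. Background was 43.1% and 53.99% of the Puro level of HCN4 in RNA2 and RNA3, and 44.3% and 54.9% of that of KCNN3. After subtraction the RNA2 ratio of HCN4 was -2.53. KCNG1, a silent subunit of voltage-gated potassium channels, was 313 ± 45.8 CPM in Puro and 194 ± 5.14 CPM in ABCC1 libraries in RNA3 with ratios of -0.61, -0.53 and -0.69. KCNMB2, a subunit of large-conductance potassium channels, gave 632, 398 and 506 counts in RNA1 Puro and 7, 4 and 5 counts in RNA1 ABCC1 libraries. Its ratios were -4.66, -1.44 and -0.48, and 60.6% and 90.4% of its Puro level in the repeats was at the background. None of 28 synaptic receptor and organizer genes past the floors was a member (medians -0.09, -0.03 and -0.01).

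The cytoskeleton held 19 members, with medians of -0.65, -0.81 and -0.57. GAP43, TUBA1A and MAP6 were members among 24 neuronal cytoskeleton genes past the floors (medians -0.11, 0.03 and -0.10). GAP43 (chr3:115342171-115440337, GRCh37), a protein of growth cones, was read at 36.6, 41.2 and 40.5 CPM in the Puro and 18.9, 18.3 and 17.3 CPM in the ABCC1 libraries in RNA1, 23.7, 32.8 and 33.9 CPM in the Puro and 16.1, 19.9 and 20.8 CPM in the ABCC1 libraries in RNA2 and 29.4, 30.2 and 28.7 CPM in the Puro and 15.8, 11.2 and 15.1 CPM in the ABCC1 libraries in RNA3. The ABCC1 libraries lay below the Puro libraries in all experiments, with ratios of -1.10 (SE 0.06), -0.66 (SE 0.19) and -1.04 (SE 0.14). TUBA1A, an alpha-tubulin of neurons, was 505 ± 18.1 CPM in Puro and 369.7 ± 7.42 CPM in ABCC1 libraries in RNA1 with ratios of -0.45, -0.41 and -0.51. TUBA1B, its near-identical neighbour 53.4 kb away, had -0.44, -0.53 and -0.54, and read pairs may have been split between them. MAP6, which stabilizes microtubules, had -0.65, -0.80 and -0.69, and 58.8% of its RNA3 Puro level was at the background, with a subtracted ratio of -1.08. FEZ1 was read at 5.79, 5.27 and 4.66 CPM in the Puro and 2.51, 1.77 and 1.84 CPM in the ABCC1 libraries in RNA1. It stood at 9.77, 12.98 and 9.97 CPM in the Puro and 2.96, 5.67 and 4.95 CPM in the ABCC1 libraries in RNA2 and 26.2, 27.2 and 33.4 CPM in the Puro and 11.6, 11.2 and 11.9 CPM in the ABCC1 libraries in RNA3, with ratios of -1.18 (SE 0.16), -1.18 (SE 0.27) and -1.29 (SE 0.11). Background was 34.4% and 34.2% of its Puro level in the repeats, and the RNA3 ratio after subtraction was -2.01. CDC42EP1 had ratios of -1.90, -1.08 and -1.13, also without overlap.

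The matrix and its modification accounted for 15 members, with medians of -0.73, -0.74 and -0.65. NID2, SPOCK1 and TNR were members among 23 genes of the extracellular matrix list past the floors (medians 0.13, -0.12 and -0.31). NID2, a basement membrane linker, had ratios of -0.43, -0.79 and -0.65 and background shares of 28.1% and 39.8% in the repeats. SPOCK1, a proteoglycan of the testican family, had -0.60, -0.97 and -1.01 (shares of 22.4% and 37.1%, RNA3 after subtraction -1.46), and SPON2, a spondin, -3.51, -0.97 and -0.42. For SPON2, 55.2% and 72.8% of the Puro level in RNA2 and RNA3 was at the background. None of 19 matrix protease and inhibitor genes past the floors was a member once TIMP3 was set aside (medians 0.10, 0.11 and -0.07). TIMP3 itself had ratios of -1.85, -0.87 and -0.97, INSM1 -2.37, -1.53 and -2.28, and HNRNPLL -1.55, -1.59 and -1.51.

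Transcription factors and chromatin proteins held 30 members, with medians of -0.75, -0.64 and -0.59. TOX3, a high mobility group protein, had ratios of -1.33, -0.93 and -1.20 without overlap. Among 16 retinoic acid response genes past the floors, ALK, RARB and TGM2 were members (medians -0.20, -0.21 and -0.33). RARB, a retinoic acid receptor, had ratios of -0.66, -0.74 and -0.51, with 65.5% and 70.9% of its Puro level in the repeats at the background, and TGM2, a transglutaminase, -0.92, -0.72 and -0.48, with shares of 53.1% and 49.2%. IRF1, an interferon regulatory factor, was the member among 10 interferon-stimulated genes past the floors (medians 0.16, -0.11 and -0.11), with -0.70, -0.85 and -0.49 and background shares of 27.3% and 39.1%. SSBP2, a single-stranded DNA-binding protein, was nearest to the limit from inside with -0.54, -0.40 and -0.48, and KRBOX4, a KRAB domain protein, had -0.40, -0.41 and -0.67. Background was 20.3% and 48.1% of the Puro level of SSBP2 in the repeats and 13.6% and 46.3% of that of KRBOX4, and their RNA2 ratios after subtraction were -0.27 and -0.33. PROSER1, a proline and serine rich protein, was 451 ± 9.902 CPM in Puro and 286 ± 8.77 CPM in ABCC1 libraries in RNA1, with -0.66, -0.47 and -0.92. Just outside the limit were OTOP1, whose largest ratio was -0.3996, ZNF385A (-0.3978), TSPYL4 (-0.3973) and IFTAP (-0.3970). The largest ratios of the members just inside were -0.4007 for SSBP2, -0.4008 for CNTNAP5, -0.4016 for KRBOX4 and -0.4023 for RASD2.

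The cell cycle group held 16 members, with medians of -0.52, -0.70 and -0.70, and all 16 kept the limit after background subtraction, whereas 6 also met the rule without each library in turn. CCNE1 and CCNB2 were among these 6, and CCNE2 and BUB1 were not. Of 32 replication and mitosis genes past the floors, BUB1, CCNB2, CCNE1 and CCNE2 were members, and the list's medians were -0.19, -0.30 and -0.27. CCNE1, the cyclin that drives entry into S phase, was read at 5.88, 6.55 and 6.37 CPM in the Puro and 4.13, 4.62 and 4.60 CPM in the ABCC1 libraries in RNA1. RNA2 gave 6.31, 6.02 and 7.14 CPM in the Puro and 2.83, 3.11 and 4.47 CPM in the ABCC1 libraries and RNA3 11.8, 8.75 and 12.8 CPM in the Puro and 7.69, 5.11 and 6.5005 CPM in the ABCC1 libraries. The lines did not overlap, with ratios of -0.45, -0.82 and -0.74 and background shares of 25.1% and 38.6% of the Puro level in the repeats. CCNE2, its close relative, had -0.53, -0.98 and -0.48, and shares over 25% of its exon bases with another gene. Background was 11.99% and 47.04% of its Puro level in the repeats. CCNB2, a mitotic cyclin, had -0.45, -0.62 and -0.79, and BUB1, a kinase of the spindle checkpoint, -0.50, -0.67 and -0.47, both without overlap.

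Metabolic enzymes numbered 17, with medians of -0.72, -0.61 and -0.76. FADS1 and FADS2, the overlapping genes of the desaturases that make polyunsaturated fatty acids, were members among 28 sterol and fatty acid synthesis genes past the floors (medians -0.14, 0.05 and -0.07). FADS2 was 118, 120.2 and 116 CPM in the Puro and 82.04, 83.2 and 85.8 CPM in the ABCC1 libraries in RNA1 and 94.6, 85.4 and 97.1 CPM in the Puro and 53.2, 40.2 and 42.5 CPM in the ABCC1 libraries in RNA3, with ratios of -0.50, -0.60 and -1.02, and FADS1 had -0.45, -0.42 and -0.76. PCK2, the mitochondrial phosphoenolpyruvate carboxykinase, was the member among 31 ATF4 target genes past the floors (medians -0.11, -0.07 and -0.22). It was read at 99.6, 102 and 107 CPM in the Puro and 65.2, 66.2 and 61.2 CPM in the ABCC1 libraries in RNA1, 81.6, 113 and 114 CPM in the Puro and 54.7, 59.8 and 56.7 CPM in the ABCC1 libraries in RNA2 and 112, 139.6 and 136 CPM in the Puro and 60.3, 51.6 and 53.2 CPM in the ABCC1 libraries in RNA3. Its ratios were -0.68 (SE 0.05), -0.85 (SE 0.15) and -1.22 (SE 0.12), and the lines were apart in each experiment. None of 25 NRF2 and glutathione genes (medians 0.10, 0.04 and 0.00), of 21 immediate early genes (0.21, 0.18 and 0.17), of 9 mesenchymal neuroblastoma genes (0.01, 0.21 and -0.13) or of 3 fibroblast genes (0.74, 0.08 and -0.18) past the floors was a member. No Schwann, immune or endothelial marker passed the floors.

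**Figure D4:**
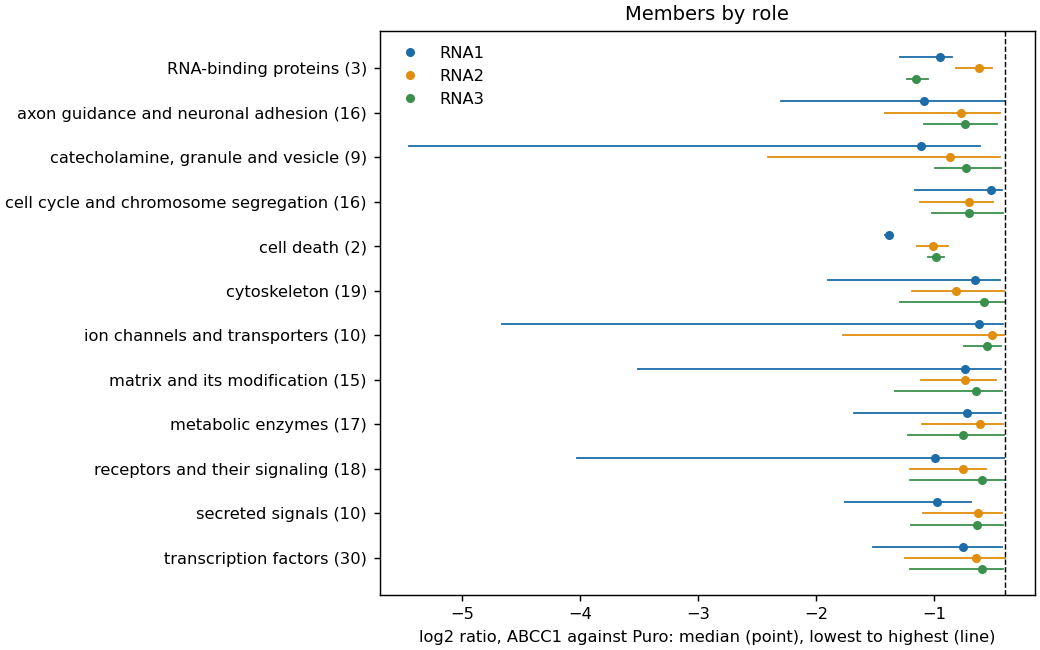
Log2 ratio of ABCC1 to Puro (x axis) by role of the member (y axis, number of members in brackets), with the median as a point and the lowest to highest ratio as a line for each experiment, and the limit of the rule dashed. The medians of all 12 roles lie left of the limit, as the choice of members sets, and cell cycle genes have their highest median in RNA1 (-0.52).

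Roles were assigned to the members alone, after their values were seen, so the sizes of the groups have no counterpart over other genes. The 53 members without a role included C1orf87, KIAA2012, TMEM255A and SERTM2, which the naming rule picked. C1orf87 had ratios of -3.68, -1.14 and -0.58, KIAA2012 -3.61, -0.97 and -0.48, TMEM255A -1.49, -1.22 and -0.80 and SERTM2 -1.18, -1.52 and -0.75. Background equalled 76.8% and 69.4% of the Puro level of C1orf87 in RNA2 and RNA3, 51.5% and 47.5% of that of KIAA2012, 73.8% and 100.4% of that of TMEM255A and 48.2% and 119% of that of SERTM2, so the last 2 had no RNA3 Puro mean above the background. Over all members its median share of the Puro level was 0.111% in RNA1, 19.3% in RNA2 and 33.7% in RNA3, and it was at least 50% for 23 members in RNA2 Puro and 55 in RNA3 Puro libraries. Across the genome, 16 neighbouring pairs of members lay within 200 kb of each other (GRCh37). Among them were FADS1 with FADS2, TUBA1A with TUBA1B, and CD34 with PLXNA2, 110.8 kb apart. Over 25% of exon bases were shared with another gene for 11 members, and 150 members shared none.

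Whether the members differed in level between the repeats was tested on the 12 libraries of RNA2 and RNA3 by averaging over the lines. The rule did not use this contrast, and used the levels only through its floors. By edgeR with TMM factors (quasi-likelihood fit, p adjusted by Benjamini-Hochberg over 41448 genes), 55 members (25.2%) were higher in RNA3 and 66 (30.3%) lower, beside 23.1% and 18.8% of all genes tested. Of the 10499 protein-coding genes that passed the same floors, 2.74% were higher and 62.2% lower. The direction of these calls depended on the scaling. With library totals alone, the scale of the CPM given above and an alternative chosen after seeing the data, 162 members (74.3%) were higher and 21 (9.63%) lower, beside 66.3% and 6.06% of all genes and 52.2% and 20.8% of the genes past the floors. With RLE size factors 31 members (14.2%) were higher and 76 (34.9%) lower, beside 0.981% and 70.8% of the genes past the floors, and DESeq2 gave 29 and 73 members beside 1.03% and 72.1%. Over all genes these shares were 18.2% and 21.9% with RLE size factors and 20.1% and 22.4% with DESeq2. The median log2 difference was 0.04 for the members and -0.45 for the genes past the floors with TMM factors, -0.11 and -0.61 with RLE size factors, and 0.78 and 0.27 with library totals. How the members compare thus depends on the genes they are set beside: in all 4 fits their share called lower was under that of the genes past the floors and over that of all genes. Neither difference was tested.

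HCN4 was higher in RNA3 by 1.04 on the log2 scale (edgeR with TMM factors, adjusted p = 5.87e-07), TNR by 1.07 (adjusted p = 2.33e-06) and TGM2 by 0.92 (adjusted p = 7.08e-06). With library totals these differences were 1.78, 1.80 and 1.65 and were called too. SEZ6 was higher by 0.57 (edgeR, adjusted p = 0.00167), a call that DESeq2 did not make (0.41, adjusted p = 0.073). The calls of the lower members named next held with TMM factors, RLE size factors and DESeq2 but not on the scale of the CPM. With TMM factors SCGN stood at -1.31 (edgeR, adjusted p = 5.02e-05), CCNE2 at -1.07 (adjusted p = 2.56e-07), GAP43 at -0.97 (adjusted p = 1.69e-07), PCDH9 at -0.81 (adjusted p = 1.08e-04) and SEMA3A at -0.71 (adjusted p = 1.12e-04). With library totals they stood at -0.57 (edgeR, adjusted p = 0.0647), -0.32 (adjusted p = 0.0588), -0.23 (adjusted p = 0.0783), -0.07 (adjusted p = 0.619) and 0.02 (adjusted p = 0.866). DBH (0.03, edgeR adjusted p = 0.875), TOX3 (0.01, adjusted p = 0.972) and ALK (-0.02, adjusted p = 0.904) did not pass the test with TMM factors, but with library totals they were higher in RNA3 by 0.76 (edgeR, adjusted p = 3.69e-07), 0.73 (adjusted p = 2.85e-05) and 0.72 (adjusted p = 1.43e-06). With TMM factors, the background's median share of the RNA3 Puro level was 41.9% for the members called higher and 22.7% for those called lower, and of the RNA2 Puro level 36.3% and 8.21%. Its part in these calls was not tested. Cells, depth and background differ together between the repeats and cannot be told apart.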

How the data were processed

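RNA of 18 libraries (3 experiments, 2 lines, 3 libraries each) was sequenced. The counts used here are those the authors deposited: read pairs per gene and exon, without normalization, strand or molecular identifiers, from bcl2fastq (2.18), STAR (2.7.3a) on GRCh37 and featureCounts (Subread 2.0.0), with spike-in and vector features added. Groups came from the sample titles. CPM, log2 ratios (0.5 CPM added) and the background, CPM per kilobase on olfactory receptor genes, were computed in Python 3.11.15. Gene types came from GENCODE v29. Fits used edgeR 4.0.16 (TMM, filter on low counts with a minimum of 10, quasi-likelihood, Benjamini-Hochberg, adjusted p at most 0.05) in R 4.3.3, and DESeq2 1.42.0 as an alternative. The fits were tested on simulated counts. Replicate libraries differed by more than counting error (chi-square per degree of freedom 1.48 to 22.4).

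The members, gene lists, roles and tests were chosen with earlier results of these data known, and the roles after the members' values were seen. Named are the 12 members with the lowest mean ratio, the 8 with the highest Puro CPM, those on a gene list, 4 on each side of the limit, and up to 15 without overlap in any experiment. A gene that this rule names is not reported here. Alternatives were other scalings, pseudocounts, floors and filters, background subtraction, a replicate block, a fit of all libraries and leaving out libraries.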

Additional observations from a re-analysis of the deposited data

How the results depend on the processing

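The number of genes that met the rule was 218, and it was 123 with TMM-scaled library sizes, 81 with DESeq2 size factors and 467 with no floor. Leaving out a library gave 186 to 250. The members' median log2 ratio moved by more than the spread between libraries in these cases: in RNA1 to -0.86 with TMM or DESeq2 size factors and -0.85 with a pseudocount of 0.1 CPM, in RNA2 to -0.52 with TMM, -0.42 with DESeq2 size factors and -0.61 with background subtraction, and in RNA3 to -0.54 with TMM, -0.48 with DESeq2 size factors and -0.76 with background subtraction. Without a library the medians were -0.85 to -0.82 in RNA1, beyond that spread without Puro replicate 2, ABCC1 replicate 1 or ABCC1 replicate 3, -0.77 to -0.65 in RNA2 and -0.72 to -0.63 in RNA3. Members called lower numbered 217 to 218 in RNA1, 1 to 41 in RNA2 and 48 to 89 in RNA3 without a library. The fewest in RNA2 were left without Puro replicate 3 (1), ABCC1 replicate 2 (3) and Puro replicate 2 (6). Without replicate 1 of both lines, a choice made after seeing the data, RNA2 gave 59, and a fit of all 18 libraries with a shared spread gave 148 in RNA1, 113 in RNA2 and 62 in RNA3, where lower calls over all genes went from 3342, 156 and 280 to 816, 2813 and 107. Members called for level in RNA3 against RNA2 numbered 121, 103 to 118 without a library, and 183 with library totals alone in edgeR, a choice made after seeing the data that turned the share of higher calls from 55 of 121 to 162 of 183.

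The replicate numbers were not taken to pair the samples, since the labels do not say what a number marks and not every correlation between deviations of same-numbered samples was over 0.1. These were -0.26, 0.02 and -0.42 in RNA1, 0.15, -0.05 and 0.14 in RNA2, and 0.24, 0.16 and -0.04 in RNA3, against -0.33 to 0.37, -0.24 to 0.14 and -0.28 to 0.15 for different numbers. With the replicate block, 218 members were called in RNA1, 44 in RNA2, 120 in RNA3 and 120 for level, against 218, 34, 92 and 121 without it, and lower calls over all genes went from 3342 to 2879 in RNA1, 156 to 268 in RNA2 and 280 to 540 in RNA3.

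Depth was lowest in RNA3, and the background, at least 50% of the level of 76 members in RNA3 ABCC1 libraries, limits what can be read of low members in the repeats.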
